A study of Homo sapiens with 20 samples.

Results

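The imprinted domain at 11p15 holds H19, IGF2, KCNQ1OT1 and CDKN1C, and it was examined here for CTCF binding and active histone marks before and after knockdown of CTCF. Members were all CTCF peaks and all H3K4me3 and H3K27ac regions that overlapped chr11:1950000-2950000 (hg19), a span of 1000 kb. Merging the CTCF peaks of 12 libraries by an overlap of at least 1 bp gave 49 sites in the span, of 62820 over chromosomes 1 to 22, X and Y, and these are numbered 1 to 49 along the chromosome below. For each histone mark the regions of its 4 libraries were joined and kept when at least 2 libraries had them, which left 25 H3K4me3 regions of 45684 and 29 H3K27ac regions of 83272.

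Chromatin immunoprecipitation with sequencing was carried out on 2 established cell lines, LNCaP, a prostate cancer line, and IMR90, lung fibroblasts. Cells had received 20 nM of a non-target siRNA pool, called control siRNA here, or of a pool against CTCF, and were collected at 144 h. CTCF was profiled in LNCaP cells, in IMR90 cells with the standard protocol and in IMR90 cells with a low-cell protocol, while H3K4me3, found at active promoters, and H3K27ac, found at active promoters and enhancers, were profiled in LNCaP cells only. Each of the 10 groups had 2 libraries, described in the study's methods as biological duplicates for the standard protocol and as duplicates for the low-cell one. The labels name no separate cultures, so p-values measure only the spread between libraries, which may be technical.

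Imprinted genes are expressed from the maternal or the paternal copy only. At the H19 and IGF2 end of the domain, a differentially methylated imprinting control region (ICR) upstream of H19 carries repeated CTCF sites. CTCF binds the unmethylated maternal copy and insulates IGF2, a fetal growth factor, from enhancers that then serve H19, a non-coding RNA, whereas methylation of the paternal copy prevents binding. At the other end, the non-coding RNA KCNQ1OT1 is transcribed from the paternal copy within KCNQ1, a potassium channel gene, and silences neighbours such as CDKN1C, an inhibitor of the cell cycle, on that copy. In GENCODE, IGF2 spans chr11:2150342-2179621, KCNQ1OT1 chr11:2618538-2721233 and CDKN1C chr11:2904443-2907005, all on the minus strand. The peak lists do not separate the parental copies, and neither DNA methylation nor expression was analysed here.

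The span chr11:2019000-2025000 was taken as the H19 ICR. It reaches from just inside H19, whose start is at chr11:2019072, upstream, and lies inside the introns of longer H19 transcript models in GENCODE, which place the gene at chr11:2016396-2025782 on the minus strand. The sequence GGNGGCAG, called the core here, is a short form of the CTCF motif. It was found within 100 bp of the summit at 17.4% of LNCaP control sites genome-wide. A search of both strands found 8 matches to it in the ICR, all on the minus strand. They are shown because most CTCF summits of the region lay close to one of them. Each is printed 5′ to 3′ on the minus strand of the GRCh37 sequence with the core in capitals, from the match nearest to H19 outwards.

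ICR match 1, chr11:2019464-2019493: tgagccgtgatGGTGGCAGgaaggggccct
ICR match 2, chr11:2020264-2020293: aatggccgagaGGCGGCAGtggtgactcac
ICR match 3, chr11:2021187-2021216: agtggccgcgcGGCGGCAGtgcaggctcac
ICR match 4, chr11:2021593-2021622: ggtggctgcgcGGCGGCAGtgcaggctcac
ICR match 5, chr11:2021999-2022028: agtggccgcgtGGCGGCAGtgcaggctcac
ICR match 6, chr11:2023432-2023461: agtggccgcgcGGCGGCAGtgcaggctcac
ICR match 7, chr11:2023833-2023862: agtggccgcgcGGCGGCAGtgcaggctccc
ICR match 8, chr11:2024238-2024267: agtggccgcgcGGCGGCAGtgcaggctcac

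Matches 3, 6 and 8 were identical over the 30 bases, matches 5 and 7 each differed from another match at 1 base, and match 4 at 2 bases. Match 2 differed from its nearest relative at 6 bases and match 1 at 16. Matches 3, 4 and 5 were spaced 406 bp apart, and matches 6, 7 and 8 were spaced 401 and 405 bp apart. Matches 3, 6, 7 and 8 held 4 CpG dinucleotides each, the positions at which DNA methylation occurs. The core was found 1.33 times per kb in the ICR and 0.752 times per kb over the whole span. Although the repeats resemble one another, 98.4% of the 50-base sequences of the ICR occurred once in the genome, and all of those under its CTCF peaks did.

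All 6 control libraries had CTCF peaks in the ICR, and knockdown left few or none. Every LNCaP, IMR90 and low-cell control library held 4 to 6 ICR peaks. In LNCaP cells the control libraries had 6 and 4 peaks and both CTCF siRNA libraries had 0. Standard IMR90 libraries had 4 and 4 peaks without knockdown and 2 and 1 with it, and low-cell libraries had 4 and 4 against 1 and 0. Groups did not overlap in any experiment. The whole lists fell as well, from 38018 and 46365 peaks to 3732 and 7736 in LNCaP cells. They fell from 35719 and 36890 to 19180 and 18539 in standard IMR90 cells, and from 20383 and 19226 to 5193 and 2057 in low-cell cells. The mean fell from 4.33 to 0.667 peaks over the 3 experiments (exact permutation test with labels exchanged within each experiment, two-sided p = 0.00926, the smallest that 216 arrangements can give), while within 1 experiment 2 libraries against 2 cannot give a p below 0.333.

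Of the 8 core matches, 6 had a CTCF summit within 100 bp in at least 1 library, and 23 of the 30 ICR summits lay that close to a match, with a median distance of 37.5 bp. Match 3 had a summit in 5 of the 6 control libraries and in none after CTCF siRNA. Match 8, the farthest from H19, had one in 5 control libraries and in IMR90 CTCF siRNA replicate 1. Match 5 was seen in 4 control libraries and in low-cell CTCF siRNA replicate 1. Matches 1 and 4 had no summit within 100 bp in any library, although match 4 differed from another match at only 2 of 30 bases.

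**Figure D1:**
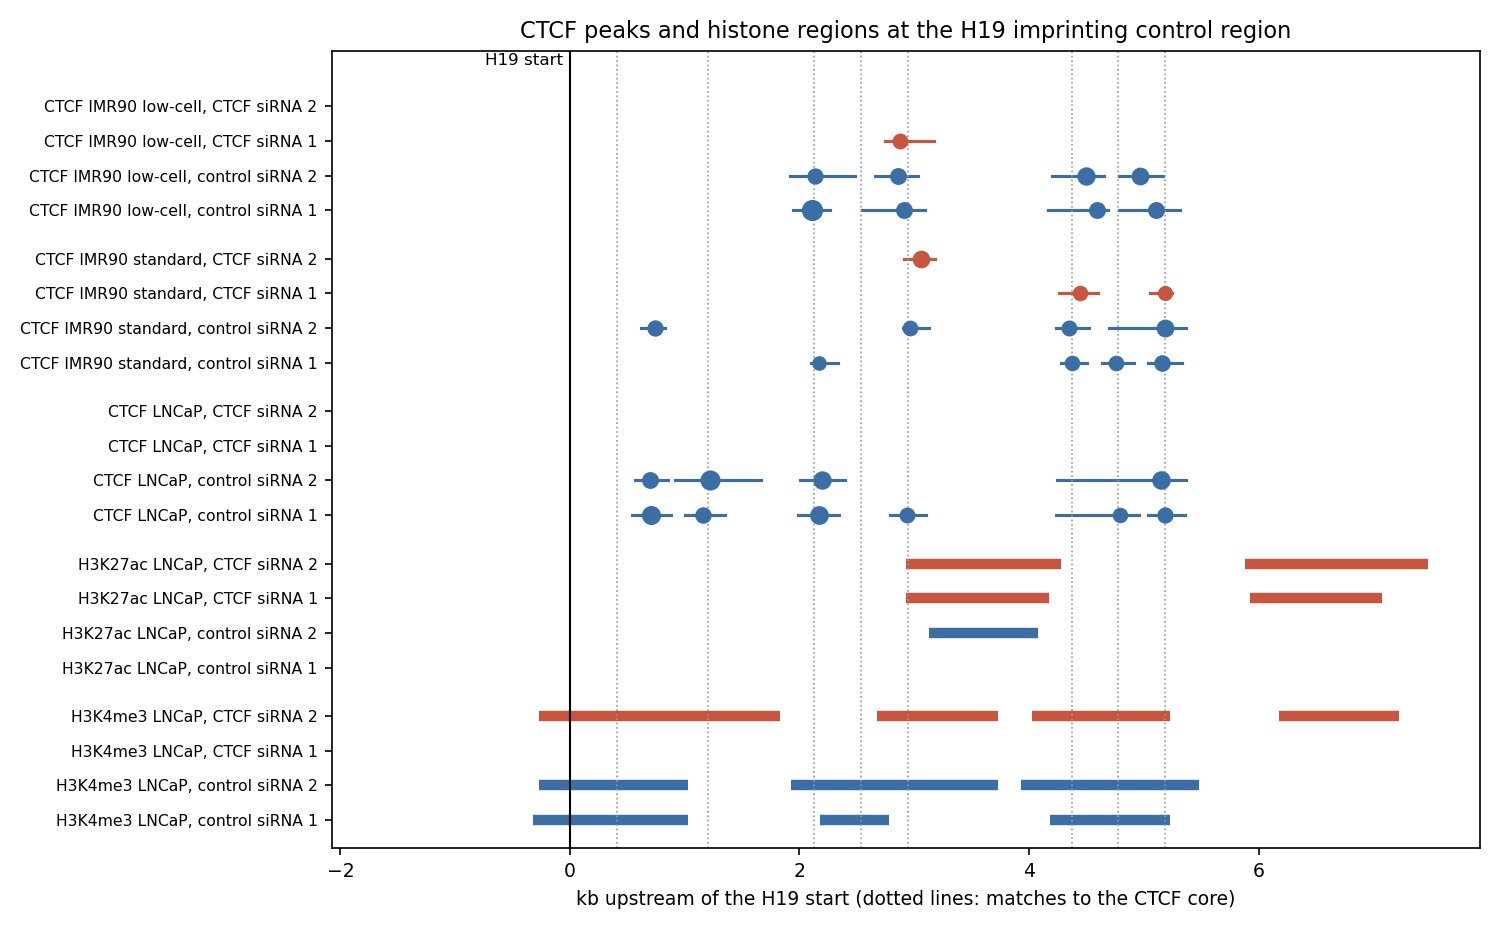
CTCF peaks and LNCaP histone regions by library (rows) against kb upstream of the H19 start, with control siRNA in blue and CTCF siRNA in red; thin lines are CTCF peaks, points their summits with area growing with fold enrichment, thick bars histone regions and dotted lines the 8 core matches. Both LNCaP CTCF siRNA rows hold 0 CTCF peaks, and the H3K27ac bar farthest upstream appears in both CTCF siRNA libraries only.

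Match 2 lay 1203 bp upstream of the H19 start and had summits in both LNCaP control libraries and in no other. There the merged site (site 9, chr11:2019985-2020739) had a fold enrichment over local background of 7.99 and 13.4 in the LNCaP controls, with no peak in any of the 8 IMR90 libraries. Next to it, site 8 (chr11:2019615-2019952) had peaks of 11.7 and 8.5 in the LNCaP controls and 7.7 in IMR90 control replicate 2. Its summits were 290 to 334 bp from the nearest core match.

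Site 10 (chr11:2020993-2021557), over match 3, had fold enrichments of 11.2 and 10.7 in LNCaP control cells, 5.6 in IMR90 control replicate 1 and 15.2 and 7.7 in the low-cell controls. Site 11 (chr11:2021614-2022252), over match 5, was the only ICR site with a peak after CTCF siRNA in both IMR90 experiments, at 9.6 in standard replicate 2 and 7.1 in low-cell replicate 1. In control cells it had 7.2 in LNCaP replicate 1, 7.0 in IMR90 replicate 2 and 8.5 and 8.5 in the low-cell libraries. Site 12 (chr11:2023237-2024444), over matches 6 to 8, had peaks in all 6 control libraries, with highest values of 7.7 and 10.96 in LNCaP, 8.1 and 9.9 in IMR90 and 8.5 and 10.6 in low-cell cells. After CTCF siRNA it kept peaks in IMR90 replicate 1 only, the higher of them at 6.7.

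ICR peaks were weak ones in LNCaP and standard IMR90 cells. The 4 LNCaP control sites of the ICR, that is, sites with a peak in both control libraries, had mean fold enrichments of 9.33 to 10.9, below the LNCaP median of 12.5 over 33413 control sites. In standard IMR90 cells the ICR control sites had 7.02 to 8.97 against a median of 13.2, whereas in low-cell cells they had 8.52 to 11.4, on both sides of the median of 8.68. None of the 4 LNCaP sites was persistent, meaning called in each CTCF siRNA library (0%, 95% Wilson interval 0 to 49.0%, which covers counting error only). Of all 3160 LNCaP control sites within that range of enrichment, 1.52% were persistent and 5.28% had a peak in at least 1 CTCF siRNA library. Within the ICR's own range of enrichment, the genome-wide shares were higher in standard IMR90 cells, at 11.99% persistent and 29.5% in at least 1 library, and in low-cell cells, at 8.82% and 28.8%. In standard IMR90 cells both control sites of the ICR were still called in the first CTCF siRNA library and not in the second, and in low-cell cells 1 of 4 had a peak in 1 library. When each list was shortened to the shortest of its experiment, no control library kept an ICR peak and the mean difference turned to 0.500 (exact permutation p = 0.333), since standard IMR90 CTCF siRNA libraries kept 2 and 1. The shortening keeps the strongest peaks, and so took the ICR peaks from every control list. List length and the loss of ICR peaks cannot be told apart with these files.

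Over the whole domain the loss was strong in LNCaP and low-cell IMR90 cells and small in standard IMR90 cells. LNCaP control libraries held 40 and 42 peaks in the span and CTCF siRNA libraries 7 and 11. Standard IMR90 libraries held 24 and 24 against 23 and 18, and low-cell libraries 21 and 21 against 8 and 5. The mean over the experiments fell from 28.7 to 12 peaks (exact permutation test as above, two-sided p = 0.00926). With all lists of an experiment at equal length the difference was −0.667 peaks (exact permutation p = 0.704). LNCaP libraries then held 12 and 8 peaks against 7 and 8, standard IMR90 libraries 17 and 17 against 23 and 18, and low-cell libraries 7 and 8 against 4 and 5.

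**Figure D2:**
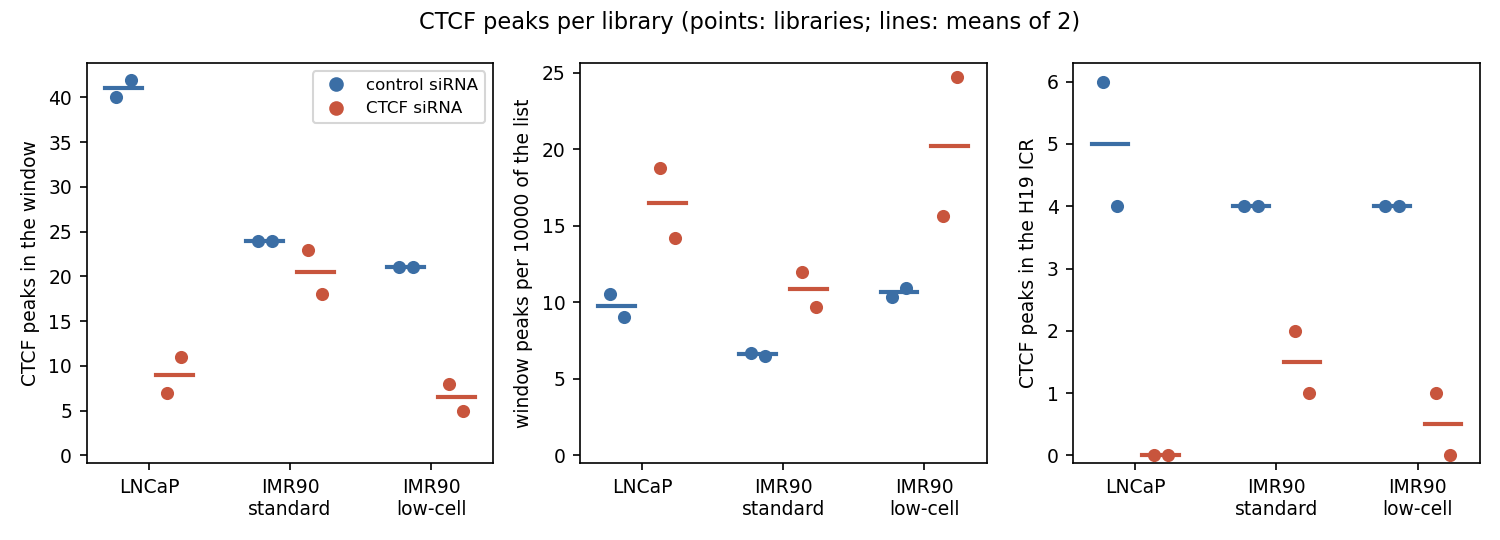
CTCF peaks in the 1000-kb span (left), the same per 10000 peaks of the list (middle) and peaks in the H19 ICR (right), by experiment; points are libraries and lines the means of 2. Counts were lower after CTCF siRNA in every experiment, whereas the number per 10000 peaks was higher in all 6 CTCF siRNA libraries than in both of their controls.

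Whole lists shortened more than the domain did. The LNCaP control lists were 38018 and 46365 peaks long and those after knockdown 3732 and 7736, and the other lists ranged from 2057 to 36890. Per 10000 peaks of the list, the LNCaP control libraries held 10.5 and 9.06 in the span, and the knockdown libraries 18.8 and 14.2. The values were 6.72 and 6.51 against 11.99 and 9.71 in standard IMR90 cells, and 10.4 and 10.96 against 15.7 and 24.7 in low-cell cells. The mean rose from 9.02 to 15.9 per 10000 (exact permutation test as above, two-sided p = 0.00926). With the lists of each experiment cut to equal length, the mean change was −6.56 per 10000 (exact permutation p = 0.139). At equal length this measure only rescales the peak counts given above, by lists of 3724 peaks in LNCaP, 18539 in standard IMR90 and 2021 in low-cell cells. Standard IMR90 libraries still held more in the span after knockdown, while LNCaP and low-cell libraries held fewer on average. The cause of the rise was not tested.

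Persistent sites made up 6 of 32 LNCaP control sites in the span (18.8%, 95% Wilson interval 8.89 to 35.3%), against 9.26% of LNCaP control sites genome-wide. The share was 16 of 20 in standard IMR90 cells (80.0%, 58.4 to 91.9%), against 51.4%, and 4 of 21 in low-cell cells (19.05%, 7.67 to 40.001%), against 10.9%. These sites share their libraries and are not replicates. Of the 26 LNCaP sites that were lost, 21 were absent from both CTCF siRNA libraries and 5 were called in replicate 2 alone. LNCaP CTCF siRNA replicate 1 had the shorter list, and without it 11 sites were kept. In low-cell cells 8 sites were kept without replicate 2, whose list of 2057 peaks was the shortest of all. No site was gained in the span, that is, was called in both libraries after knockdown and in no control, against 50 gained sites genome-wide in LNCaP, 129 in standard IMR90 and 9 in low-cell cells.

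Sites in the span were stronger than usual, and all persistent ones were among the stronger. The median of the mean control fold enrichment was 16.0 over the LNCaP sites of the span against 12.5 genome-wide, 20.0 against 13.2 in standard IMR90 cells and 13.9 against 8.68 in low-cell cells. Above the genome-wide median, 6 of 19 LNCaP sites, 16 of 16 standard IMR90 sites and 4 of 17 low-cell sites were persistent. The genome-wide shares above the median were 17.0%, 83.1% and 17.8%. Below it no site of the span was persistent, out of 13, 4 and 4, and genome-wide 1.55%, 19.7% and 4.08% were.

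**Figure D3:**
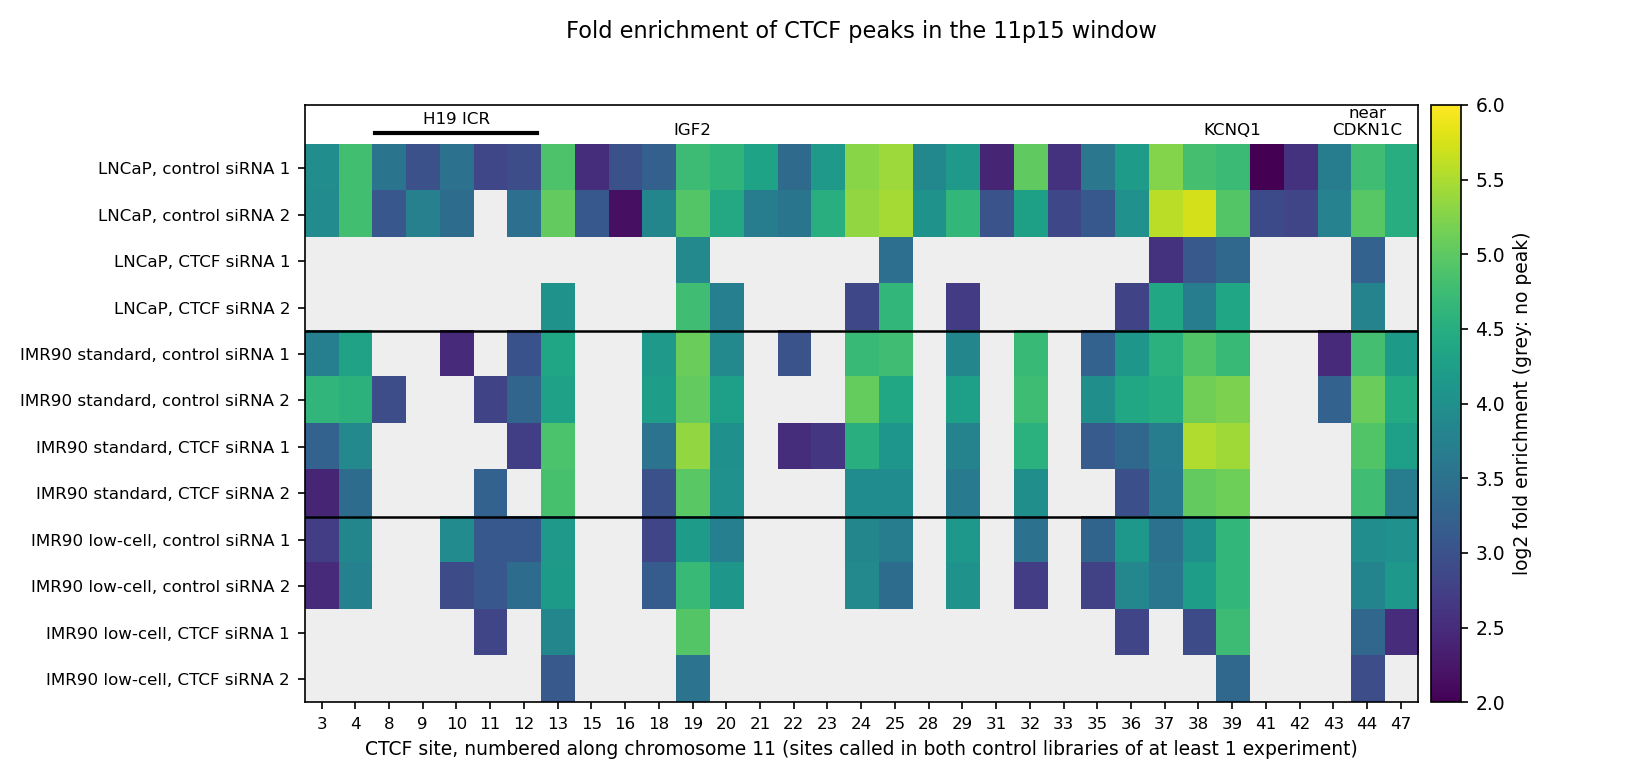
log2 fold enrichment of the CTCF peak at each site called in both control libraries of at least 1 experiment (columns, numbered along chromosome 11) in each library (rows); grey means no peak. The columns of the H19 ICR are empty in both LNCaP CTCF siRNA rows, and those of sites 19, 39 and 44 are filled in all 12.

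Peaks in all 12 libraries were found at 3 sites, which lie by IGF2, in KCNQ1 and by CDKN1C. The share of such sites among the 62820 over the genome was not computed here. Site 19 (chr11:2172439-2173739) lies in an intron shared by IGF2 and INS-IGF2, a read-through transcript. Its fold enrichment in LNCaP cells was 26.8 and 30.5 with control siRNA and 14.8 and 27.2 with CTCF siRNA. It was 34.0 and 32.9 against 40.6 and 31.4 in standard IMR90 cells, and 18.5 and 26.2 against 30.5 and 11.5 in low-cell cells, and the groups overlapped in all 3 experiments. Site 18 (chr11:2171192-2171979), with a summit 1776 bp away in the same intron, had 9.3 and 14.3 in the LNCaP controls and no peak after knockdown. In standard IMR90 cells site 18 kept its peaks, at 11.5 and 8.0 from 17.7 and 18.6, and in low-cell cells it lost both.

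Site 39 (chr11:2553775-2554533) lies in an intron of KCNQ1, 167 kb from the KCNQ1OT1 start and beyond the end of that gene. In LNCaP cells it had 26.5 and 30.6 in the controls and lower values of 10.1 and 20.7 after knockdown. Standard IMR90 cells had 25.8 and 36.9 against 43.04 and 34.5, and low-cell cells 25.1 and 24.96 against 26.6 and 10.1. The groups overlapped in both IMR90 experiments. Its neighbour site 38 (chr11:2552523-2553197), with a summit 1328 bp away, was persistent in LNCaP cells (28.4 and 53.5 against 8.7 and 12.8) and in standard IMR90 cells (30.0 and 35.1 against 45.9 and 33.0). After CTCF siRNA in low-cell cells it had a peak of 7.6 in replicate 1 only.

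Site 44 (chr11:2909544-2910269) lies 2810 bp upstream of the CDKN1C start, in an exon of the antisense transcript SLC22A18AS. LNCaP control cells had 27.3 and 31.2 there and CTCF siRNA cells 9.5 and 13.9. In standard IMR90 cells the values were 27.9 and 34.0 against 30.3 and 27.2, with overlap, and in low-cell cells 15.7 and 13.99 against 10.0 and 7.7. Site 47 (chr11:2913163-2913887), 6462 bp upstream of CDKN1C, was lost from both LNCaP libraries after 22.5 and 22.4 in the controls. In standard IMR90 cells it kept peaks of 19.1 and 12.8, from 18.1 and 21.7 in control cells.

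**Figure D4:**
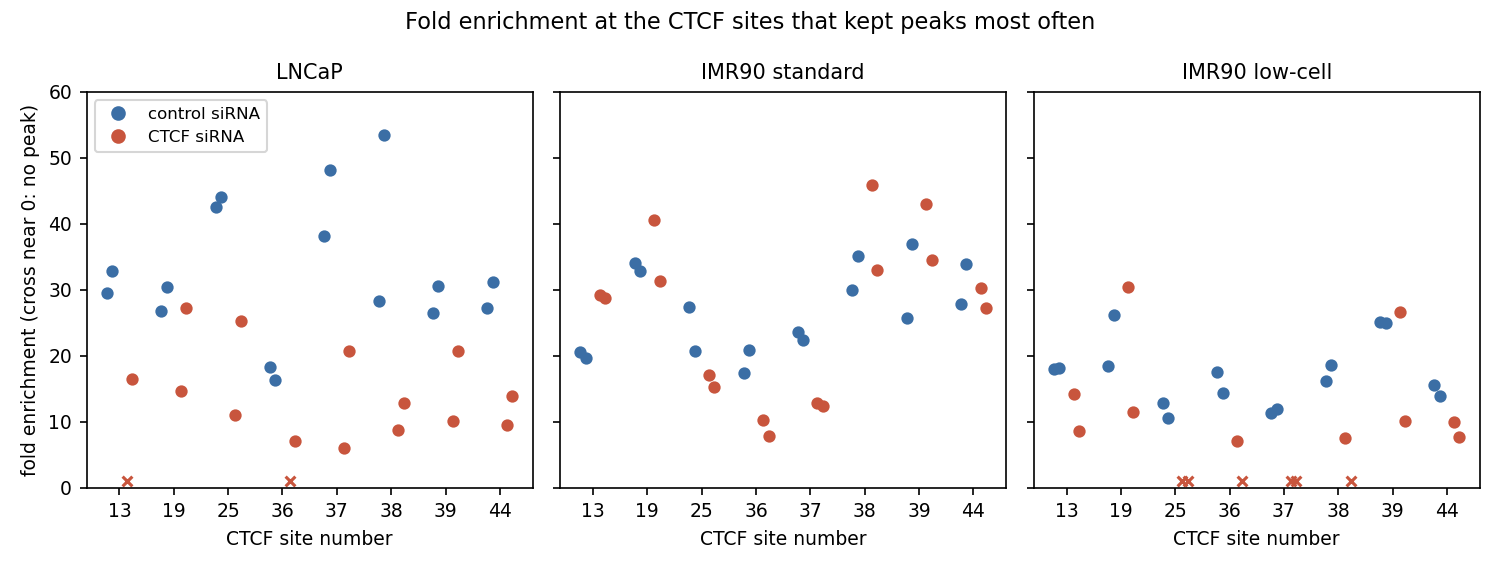
Fold enrichment at the 8 CTCF sites with peaks in at least 4 of the 6 CTCF siRNA libraries, in each library of LNCaP (left), standard IMR90 (middle) and low-cell IMR90 cells (right), with control siRNA in blue and CTCF siRNA in red; crosses near 0 mark libraries without a peak. Site 13 was higher after CTCF siRNA in both standard IMR90 libraries and lower or absent in the other experiments.

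Site 13 (chr11:2057670-2058542), in an intergenic stretch 33.3 kb beyond the ICR on the side of IGF2, was the CTCF site nearest to the ICR on that side. It had 29.6 and 32.8 in LNCaP control cells and, after CTCF siRNA, 16.5 in replicate 2 and no peak in replicate 1. Standard IMR90 controls had 20.5 and 19.6 and the knockdown libraries 29.2 and 28.7, and low-cell cells had 18.02 and 18.2 against 14.3 and 8.7. Both CTCF siRNA values stood above both control values in standard IMR90 cells alone.

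Upstream of TH, the gene of the first enzyme in catecholamine synthesis, lay the intergenic sites 24 (chr11:2216076-2216683) and 25 (chr11:2218370-2218948), with summits 2283 bp apart. Site 25 was persistent in LNCaP cells (42.6 and 44.1 against 11.1 and 25.2) and in standard IMR90 cells (27.4 and 20.8 against 17.1 and 15.3). Site 24, nearly as strong in LNCaP control cells (38.98 and 40.9), had a peak of 7.3 in LNCaP CTCF siRNA replicate 2 only. It was persistent in standard IMR90 cells, with 22.95 and 15.4 from 25.8 and 33.4. Site 37 (chr11:2449319-2449839), in an intron of TRPM5, a cation channel of taste cells, was the sixth persistent site of LNCaP cells (38.1 and 48.1 against 6.0 and 20.8). Neither site 24, 25 nor 37 had a peak in low-cell cells after CTCF siRNA.

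All 6 sites persistent in LNCaP cells were also persistent in standard IMR90 cells, which had 10 more that LNCaP cells did not keep. Those 10 were sites 3 and 4 in MRPL23, a mitochondrial ribosomal protein gene, and sites 13, 18, 20, 24, 29, 32, 36 and 47. The genome-wide overlap of persistent sites between the cell lines was not computed here. Genome-wide, standard IMR90 cells kept 51.4% of all control sites and 83.1% of those above the median enrichment. In LNCaP CTCF siRNA replicate 2 alone, sites 13, 20, 24, 29 and 36 kept a peak. Site 20 (chr11:2177568-2178281), in an intron of IGF2 and 1739 bp from its outermost start, had 24.4 and 21.4 in LNCaP control cells and 13.2 in that replicate. Site 4 (chr11:1974505-1975230) had 27.6 in both LNCaP controls and no peak after CTCF siRNA, whereas standard IMR90 cells had 19.8 and 23.7 against 14.8 and 10.6. Site 29 (chr11:2326383-2327030), in TSPAN32, a tetraspanin gene, had 17.6 and 25.1 in LNCaP control cells and 6.4 in CTCF siRNA replicate 2. Site 32 (chr11:2421442-2421913), whose summit was 73 bp from a TSSC4 start, had 32.6 and 19.3 in LNCaP control cells and no peak after CTCF siRNA. Site 36 (chr11:2441701-2442679), in TRPM5, had 18.3 and 16.3 in LNCaP control cells and 7.0 in CTCF siRNA replicate 2. Site 3 (chr11:1969987-1970839) had 15.5 and 15.3 in LNCaP control cells and no peak after knockdown, and in standard IMR90 cells 13.2 and 24.8 against 9.6 and 5.3.

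Fold enrichment is not scaled between libraries, so its direction is given as a description. Both CTCF siRNA values were below both control values at 5 of 6 persistent LNCaP sites in the span, against 77.4% of persistent sites genome-wide, and above at 0, against 3.59%. In standard IMR90 cells 9 of 16 were below, against 57.3%, and 1 was above, site 13, against 12.2%. In low-cell cells 2 of 4 were below, against 35.7%, and 0 above, against 7.06%.

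Between the cell lines, 18 of the 49 sites were control sites in all 3 experiments. A further 12 were control sites in LNCaP and in neither IMR90 experiment, and 10 of these had no peak in any IMR90 control library. The 3 strongest of the 12 were site 23 (chr11:2207845-2208243, 17.98 and 22.9), site 21 in TH (chr11:2187276-2187745, 19.9 and 13) and site 28 in a coding exon of C11orf21 (chr11:2320553-2320870, 14.6 and 16.6). None of these 3 had a peak in LNCaP cells after CTCF siRNA, and site 23 had one of 6.2 in IMR90 CTCF siRNA replicate 1. In the body of KCNQ1OT1, site 41 (chr11:2713629-2713901) was a weak LNCaP control site, at 4.0 and 7.5. No site was a control site in both IMR90 experiments and not in LNCaP, and only site 11 of the ICR was one in low-cell cells and not in LNCaP. Genome-wide shares of sites held by 1 cell line or by both were not computed here. Over the genome, LNCaP had 33413 control sites, standard IMR90 cells 30523 and low-cell cells 16863.

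LNCaP control libraries had a mean of 41 ± 1.41 peaks in the span (SD, n = 2) and the IMR90 control libraries of both protocols 22.5 ± 1.73 (SD, n = 4). The IMR90 libraries held 24 and 24 peaks with the standard protocol and 21 and 21 with the low-cell one. Their SD is thus the difference between protocols, and the test below exchanged labels across both. The difference of 18.5 peaks was the largest of the 15 arrangements (exact permutation test, two-sided p = 0.0667, the smallest the design allows). LNCaP control lists were longer than all IMR90 control lists. With every control list shortened to the shortest of the 6, an alternative chosen after seeing the data, the difference was 5.00 peaks (exact permutation p = 0.133). Per 10000 peaks LNCaP had 9.79 ± 1.03 and IMR90 8.64 ± 2.35 (p = 0.533 by the same exact test), with overlapping values. For the ICR the means were 5.00 ± 1.41 and 4.00 ± 0 peaks (exact permutation test, p = 0.333).

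Sites that survived knockdown were next set beside the sequence at their summits. The CTCF core consensus of 14 positions, with up to 2 mismatches on either strand, was found within 100 bp of the summit at 20 of 32 LNCaP control sites in the span (62.5%), against 74.0% of LNCaP control sites genome-wide. For the shorter core the shares were 11 of 32 (34.4%) and 17.4%. In windows 1000 bp to the right, the consensus was found at 8 of 32 sites in the span against 5.23% genome-wide, and the core at 9 of 32 against 7.57%. Matches away from the summits were thus more frequent here than elsewhere. In the ICR, 1 of 4 LNCaP control sites had the consensus and 3 had the core. The consensus match was at site 8 with 2 mismatches, whereas sites 9 to 12 needed 3 or 4.

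Of the 6 persistent LNCaP sites, 4 had the consensus within 100 bp of the summit, 3 of them without a mismatch, and none had the shorter core. Of the 26 lost LNCaP sites, 16 had the consensus, 1 of them without a mismatch (site 4), and 11 had the shorter core. In standard IMR90 cells, counted by merged site, 4 of 16 persistent and 0 of 3 lost sites matched exactly. The shorter core was at 4 and 2 of them. In low-cell cells exact matches were at 1 of 4 persistent and 3 of 16 lost sites. The shorter core was at 0 and 8 there. Genome-wide motif shares by fate were not computed here. For each of the 4 persistent LNCaP sites with the consensus, 1 match is printed 5′ to 3′ on its own strand of the GRCh37 sequence. The consensus is in capitals, for comparison with the ICR repeats above.

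Site 37, chr11:2449601-2449630, plus strand: cctgtcagCCACCAGAGGGCGCtaaaggac
Site 38, chr11:2552778-2552807, minus strand: gcaaatagCCACCAGGTGGCGCacagaccc
Site 39, chr11:2554060-2554089, plus strand: tcttgattCCAGCAGAGGGAGGctgtgcag
Site 44, chr11:2909772-2909801, minus strand: ccatctggCCAGCAGAGGGCGCagaaggac

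Sites 37, 38 and 44 matched the consensus exactly, with 1 CpG each in the 30 bases, and site 39 had 1 mismatch and no CpG. Sites 19 and 25, the other two persistent in LNCaP cells, had no match to either motif within 100 bp of the summit, and needed 3 mismatches for the nearest. That says only that these letters were not in this window. The printed matches of sites 38 and 39, side by side in KCNQ1, were on opposite strands, 23 and 69 bp from the summits. Site 39 had 2 consensus matches within 100 bp of its summit, of which 1 is printed.

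The histone marks were then compared in LNCaP cells, where the label could be checked against the marks. The prostate genes KLK3, KLK2, TMPRSS2, HOXB13 and FOLH1 each had H3K4me3 and H3K27ac within 500 bp of a start in all 4 libraries of each mark. None of 3 blood genes had either mark in any library. Of 5 fibroblast genes, 3 had H3K4me3 in all 4 libraries (COL1A1, TWIST1 and PRRX1) and none had H3K27ac in any. The identity of IMR90 cells could not be checked, since only CTCF was profiled there.

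Start sites of imprinted genes mostly carried the same marks in every library. Of 5 genes expressed from the maternal copy, 4 had H3K4me3 in all 4 libraries: KCNQ1, CDKN1C, SLC22A18, a transporter gene, and PHLDA2, a placental growth regulator. H19 was the exception. H3K27ac was present in all 4 libraries at SLC22A18 and PHLDA2 and in none at CDKN1C, and KCNQ1 and H19 had it in 3. At KCNQ1 the H3K27ac lay at an internal start and at H19 at the start of a longer transcript model. Of 3 paternally expressed genes, KCNQ1OT1 had both marks in all 4 libraries. IGF2 had H3K27ac within 500 bp of its outermost start (chr11:2179621) in all 4. The H3K27ac region over that start (chr11:2179551-2180750) was found in 3 libraries and was missing from CTCF siRNA replicate 1. In that replicate only the intronic H3K27ac region given next came within 500 bp. H3K4me3 was present at IGF2 in CTCF siRNA replicate 2 alone, at the starts between chr11:2158517 and chr11:2160619. In the IGF2 intron around CTCF site 20, H3K4me3 (chr11:2177501-2178650) and H3K27ac (chr11:2177001-2179450) were called in all 4 libraries of each mark. IGF2-AS, an antisense RNA of IGF2, had neither mark in any library. Among 8 neighbouring genes, 4 had H3K4me3 in all 4 libraries (MRPL23, CD81, TSSC4 and TRPM5) and 4 in none.

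**Figure D5:**
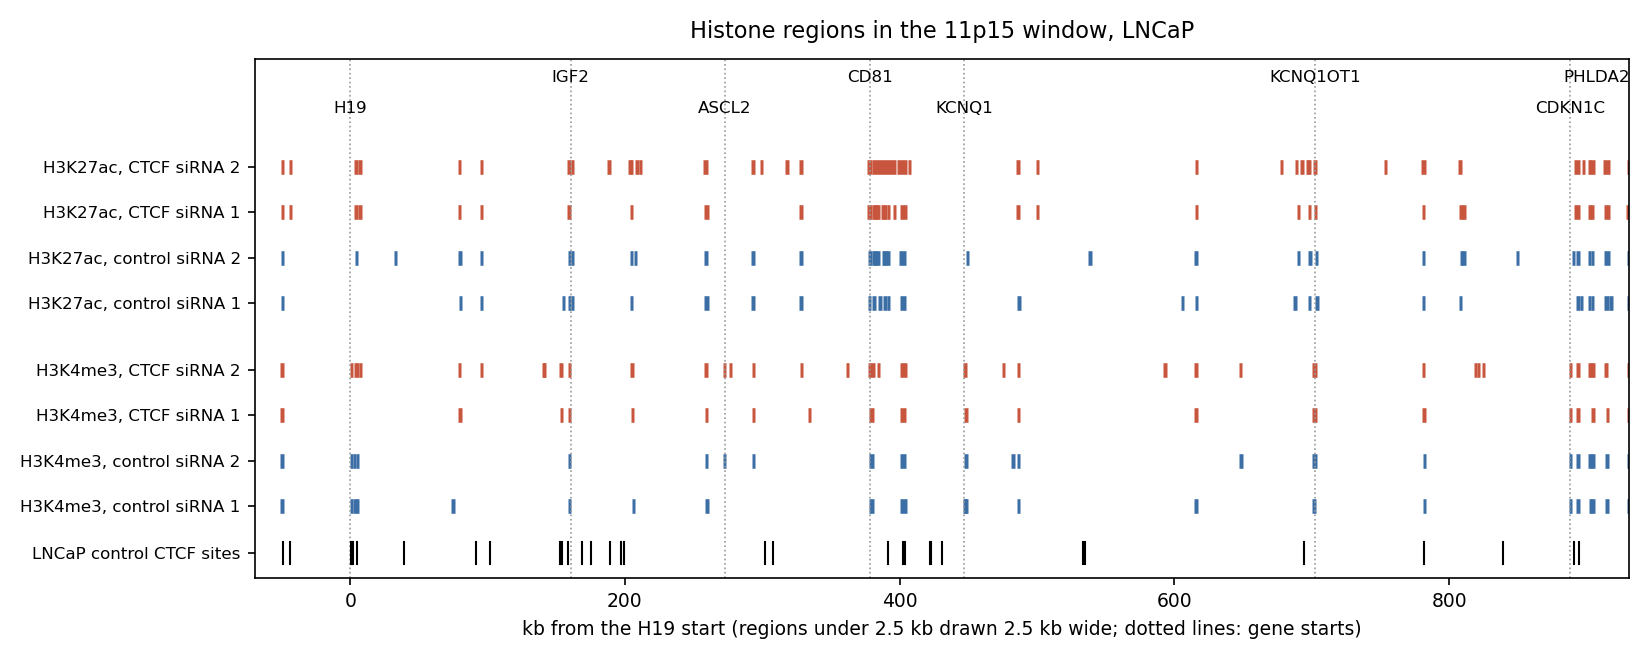
H3K4me3 and H3K27ac regions of each LNCaP library (rows) and the LNCaP control CTCF sites (bottom row) against kb from the H19 start, with control siRNA in blue and CTCF siRNA in red; regions under 2.5 kb are drawn 2.5 kb wide and dotted lines are gene starts. Regions at KCNQ1OT1 and PHLDA2 appear in all 8 rows, and H3K4me3 at H19 is missing from CTCF siRNA replicate 1.

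At the H19 start, H3K4me3 covered chr11:2018751-2020100 and chr11:2018801-2020100 in the control libraries and chr11:2018801-2020900 in CTCF siRNA replicate 2. The other knockdown library, replicate 1, had no H3K4me3 region there. The same libraries had H3K4me3 within the ICR at chr11:2021001-2022800 and chr11:2023001-2024550, merged spans that overlap CTCF sites 10 to 12, and again replicate 1 had none. In replicate order, the H3K4me3 lists held 36637 and 48605 regions in the controls and 41244 and 59920 after knockdown. With all H3K4me3 lists cut to equal length, the regions at the H19 start and in the ICR were called in the same libraries. They were again missing from CTCF siRNA replicate 1, and the cause was not tested. After knockdown neither LNCaP CTCF library had a CTCF peak in the ICR, while H3K4me3 was called there in 1 of the 2 H3K4me3 libraries.

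H3K27ac was called after knockdown only, in both libraries, at the far edge of the ICR, at chr11:2025001-2026150 and chr11:2024951-2026550, which runs from an intron of the longest H19 models past the outer end of the gene. H3K4me3 was called there too in CTCF siRNA replicate 2, at chr11:2025251-2026300. A second H3K27ac region, mostly in the gap between core matches 5 and 6 of the ICR (chr11:2022001-2023350), was called in control replicate 2, with a width of 950 bp, and in both CTCF siRNA libraries, with widths of 1250 and 1350 bp. Control replicate 1 had no H3K27ac region in the ICR. The edge region was still called in both CTCF siRNA libraries and in no control when all lists were cut to equal length. Genome-wide, 13.2% of H3K27ac consensus regions were called in both CTCF siRNA libraries only and 1.85% in both control libraries only.

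In the span, 3 of 29 H3K27ac regions were called in both CTCF siRNA libraries only, a share near that background, and 0 in both control libraries only. Besides the ICR edge they were chr11:1974151-1975400, which holds the lost CTCF site 4, and chr11:2518351-2519500 in an intron of KCNQ1 with no CTCF site. At equal list length the first of these was called in no library and the second in 1. Regions in all 4 libraries numbered 20, and their genome-wide share was not computed here. They included chr11:2097351-2099750 and chr11:2113201-2115800 between H19 and IGF2, and chr11:2909901-2914800, which overlaps the persistent site 44 and holds the lost site 47 upstream of CDKN1C.

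For H3K4me3, 2 of 25 regions were called in both CTCF siRNA libraries only and 0 in both control libraries only, against 6.44% and 2.55% genome-wide. One was chr11:2097401-2099300, inside the first of the intergenic H3K27ac regions, and held at equal list length. The other, chr11:2171401-2172600 in the IGF2 intron, overlapped the lost site 18 and the edge of the persistent site 19, and at equal length only CTCF siRNA replicate 1 kept it. Regions in all 4 libraries numbered 14, and their genome-wide share was not computed here. At KCNQ1OT1 the H3K4me3 region spanned chr11:2719001-2722750, and at CDKN1C chr11:2906051-2907300.

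By number, the LNCaP control libraries had 22 and 22 H3K4me3 regions in the span, and the knockdown libraries 20 and 38. Covered length was 33400 and 39800 bp against 34600 and 66000 bp. Neither differed beyond the spread between libraries (exact permutation tests, p = 1.00 and p = 0.667, n = 2 per group). Without CTCF siRNA replicate 2 the difference of 7.00 H3K4me3 regions turned to −2.0 and that of 3.00 H3K27ac regions to −0.500. H3K27ac regions numbered 31 and 36 against 33 and 40 (p = 0.667 by the same exact test), with overlap. They covered 53050 and 62850 bp in the controls and 68800 and 101550 bp after knockdown (exact permutation test, p = 0.333, the smallest that 2 against 2 can give). The difference of 27225 bp came to 10.85 kb without CTCF siRNA replicate 2 and 43.6 kb without CTCF siRNA replicate 1. Whole H3K27ac lists were 87146 and 70099 regions long in the controls and 94628 and 99157 after knockdown. With all H3K27ac lists cut to equal length, the difference in cover was 21.4 kb (exact permutation test, p = 0.333). The cause of the wider cover was not tested.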

How the data were processed

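CTCF ChIP-seq was available from 12 libraries and histone ChIP-seq from 8, all in groups of 2. In standard libraries, hg19 alignment by the authors used Bowtie, ambiguous and duplicate reads were removed, and they called CTCF peaks with MACS2 and histone regions with PeakRanger. Low-cell libraries were trimmed with cutadapt, aligned with BWA and freed of duplicates by molecular identifiers, with peaks from MACS2. Lists were made per library and no input library is stated. In each deposited CTCF list, fold enrichment is a ratio over local background, with no scaling across libraries, and deposited p-values and q-values are on a −log10 scale. The deposited histone lists carry a score of unstated meaning, used here only to rank regions. The lists hold no read counts, so depth per library is unknown from them (read totals that the study gives were not used here), and a lost peak is one below a threshold. Entries outside chromosomes 1 to 22, X and Y were left out, and all others lay within the lengths of these 24 chromosomes of GRCh37. Whole CTCF list lengths in the text include the entries left out. Values per 10000 and lists of equal length do not, for example 2021 of 2057 peaks in low-cell CTCF siRNA replicate 2. Coordinates count from 1. Peaks sharing 1 bp or more were taken as the same site. Genes and starts came from GENCODE on GRCh37 (basic transcripts), with 16 of 17 listed genes matched (MIR675 was not). Not every prostate marker gene checked is reported here. Motifs were searched on both strands within 100 bp of the strongest control summit. Tests were exact permutations over libraries, which cannot fall below 0.333 for 2 against 2. Site building, permutation and motif search were tested on simulated data. Members, gene lists, tests and alternatives were chosen with earlier results of these data known. Sites named in the text were those of the ICR, those persistent in at least 1 experiment, the 3 strongest LNCaP-only sites, and histone regions at the 4 genes, at named CTCF sites or in 1 treatment only; site 41 and the 2 intergenic H3K27ac regions were named after their values were seen. Alternatives were a q-value of at most 0.001, lists of equal length, other overlap rules, 1 library sufficing in place of 2, summits in place of overlaps, merging within 1000 bp, the 50% of regions with the lowest scores, other motif settings, the replicate block and each library left out. Python 3.11.15, numpy 2.4.6, pandas 2.3.3, scipy 1.17.1 and matplotlib 3.10.9 were used.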

Additional observations from a re-analysis of the deposited data

Results flagged for a closer look

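Site 13, the CTCF site beyond the H19 ICR on the side of IGF2, moved in opposite directions between experiments. Mean control fold enrichment was 31.2 in LNCaP, 20.1 in standard IMR90 and 18.1 in low-cell cells. After CTCF siRNA both values were higher than both controls in standard IMR90 cells (29.2 and 28.7) and lower or absent in LNCaP (16.5 and no peak) and low-cell cells (14.3 and 8.7). Fold enrichment is not scaled between libraries. Genome-wide, 12.2% of persistent sites in standard IMR90 cells had both values above both controls. At sites 19, 38 and 39 the means also rose in standard IMR90 cells and fell in LNCaP cells, but their standard IMR90 groups overlapped. The difference between the experiments at site 13 was not tested, and the 2 IMR90 experiments, which differ in protocol, disagreed in direction. Groups of 2 libraries were too small for a check for single outlying libraries.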

How the results depend on the processing

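Shortening every list to the shortest of its experiment changed the summary of CTCF peaks most: the mean change after CTCF siRNA was −0.667 peaks in the span (p = 0.704), −6.56 per 10000 (p = 0.139) and 0.500 in the ICR (p = 0.333 by the same exact test), and LNCaP minus IMR90 control cells was −2.25 peaks (p = 0.600). Control sites then numbered 8 in LNCaP and 6 in low-cell cells. By construction such lists are equal within an experiment but not between them (3724 peaks in LNCaP, 18539 in standard IMR90 and 2021 in low-cell cells), so the value between cell lines follows from the cut. Letting 1 library suffice in place of 2 gave 11 persistent LNCaP sites and 8 low-cell sites. Leaving out each library in turn gave −17.5 to −15.8 peaks, 5.32 to 8.35 per 10000, −4.00 to −3.33 ICR peaks and 17.5 to 19.5 for the cell lines. Persistent sites ranged from 6 to 11 in LNCaP (11 without CTCF siRNA replicate 1) and from 4 to 8 in low-cell cells (8 without CTCF siRNA replicate 2). With equal list lengths, H3K27ac regions differed by −2.50 and those in both CTCF siRNA libraries only fell to 1 for each mark; per 10000 of the list, chosen after seeing the data, H3K27ac differed by −0.586; with the lower scores alone, 5 H3K27ac regions were in both CTCF siRNA libraries only. For H3K4me3 the omissions gave −2.0 to 16.0 regions and −2.0 to 29.4 covered kb, 0 to 4 regions in control libraries only and 3 to 4 in CTCF siRNA libraries only. The lowest differences, and the 4 control regions (3 at H19, 1 at SLC22A18), came without CTCF siRNA replicate 2, and the highest count of CTCF siRNA regions without control replicate 1. For H3K27ac the omissions gave −0.500 to 6.50 regions, 0 to 3 in control libraries only and 4 to 5 in CTCF siRNA libraries only (−0.500 and 3 without CTCF siRNA replicate 2, 5 without control replicate 2). Where an omission left 1 library of the treatment counted, no value was given, since regions needed 2 libraries. Within 50 bp of the summit the core was found at 4 standard IMR90 sites in place of 7. The cause of these shifts was not tested. Of the values for named sites and regions under other settings, 29 moved and 65 did not; a stricter q-value moved none of the 42 at CTCF sites.

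The labels give replicate numbers and do not say whether same-numbered libraries were paired. Deviations of same-numbered libraries at persistent sites correlated at 0.297 in LNCaP, −0.0114 in standard IMR90 and 0.0696 in low-cell cells. With the replicate block the changes stayed −16.7 peaks, 6.83 per 10000 and −3.67 ICR peaks, each at p = 0.0313 (exact permutation over 64 arrangements), and 7.00 H3K4me3 and 3.00 H3K27ac regions (p = 1.00 and p = 0.500). No call changed.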
